A study of Homo sapiens with 3 samples.

Results

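The 10 core genes of the circadian clock were followed in TOV21G cells depleted of the histone deacetylase HDAC2. They were the period genes PER1, PER2 and PER3, the cryptochrome genes CRY1 and CRY2, CLOCK, ARNTL (current symbol BMAL1), NR1D1, NR1D2 and DBP. The genes were picked by symbol, current or previous, and all 10 had 1 row each among the 57736 gene rows of the table. TOV21G is an established human cell line of ovarian clear cell carcinoma in which ARID1A, a gene of the SWI/SNF chromatin remodeller, is mutated. The HDAC2 knockdown group held 2 libraries, 1 for each of 2 lentiviral short hairpin RNAs (shRNA 1 and shRNA 2), and the WT group held 1 library. No control virus is named for the WT culture, and effects of transduction and of depletion cannot be told apart. Nor do they give a time of harvest or a step that sets cultures to a common phase, and any difference in clock phase between the cultures cannot be told apart from a difference in level. The p-values rest on the spread between the 2 hairpin libraries, taken for each gene mostly from the spread pooled over all genes tested. This spread includes any difference between the hairpins. It may otherwise be technical, since nothing says how the cultures were kept apart, and WT, with 1 library, is taken to have the same spread. In such bulk samples fewer cells of a type and less RNA per cell cannot be told apart.

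The mammalian clock is a loop of transcription and repression that runs in nearly every cell. CLOCK and BMAL1 (the ARNTL product) bind together at E-box sequences and switch on the PER and CRY genes, whose proteins return to the nucleus and block CLOCK and BMAL1. In a second loop the nuclear receptors REV-ERBα (NR1D1) and REV-ERBβ (NR1D2) repress ARNTL from ROR elements, with the corepressor NCOR and the deacetylase HDAC3. DBP is an output factor of the loop, switched on through E-boxes, that acts on D-boxes.

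In GENCODE 29 (GRCh38) the activators lie at chr4:55427903-55547138 (CLOCK, ENSG00000134852, minus strand) and chr11:13276652-13387266 (ARNTL, ENSG00000133794, plus). The period genes lie at chr17:8140472-8156506 (PER1, ENSG00000179094, minus), chr2:238244038-238290102 (PER2, ENSG00000132326, minus) and chr1:7784320-7845177 (PER3, ENSG00000049246, plus). The cryptochrome genes lie at chr12:106991364-107093829 (CRY1, ENSG00000008405, minus) and chr11:45847118-45883248 (CRY2, ENSG00000121671, plus). NR1D1 lies at chr17:40092787-40100725 (ENSG00000126368, minus), NR1D2 at chr3:23945260-23980618 (ENSG00000174738, plus) and DBP at chr19:48630030-48637438 (ENSG00000105516, minus).

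The perturbation is set by the stems of the 2 hairpins, shown because they define what was depleted. The labels list both hairpins without saying which is shRNA 1. The stem listed first lies at chr6:113941031-113941051 (GRCh38, minus strand), in the 3' UTR within exon 14 of 14 of the principal HDAC2 transcript. The stem listed second lies at chr6:113949221-113949241 (minus strand) and falls in exon 7 of 14, within the part that codes for protein. The closest stretch in any annotated transcript of the 10 clock genes differed from the first stem at 5 to 8 of its 21 bases, and from the second at 6 to 9. Shorter matches, such as seeds, were not searched.
HDAC2 stem listed first: cagtctcaccaatttcagaaa
HDAC2 stem listed second: gcaaatactatgctgtcaatt

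HDAC2 RNA had levels of 33.4 and 51.6 CPM (counts-per-million, on scaled library sizes) with shRNA 1 and shRNA 2, against 105 CPM in WT. Both knockdown libraries were below WT, at 31.7% and 48.9% of its level, and the log2 change was −1.31 ± 0.20 (SE). By the quasi-likelihood test of edgeR with Benjamini-Hochberg adjustment over all genes tested, the adjusted p was 4.82e-04. Total counts were 11398791 and 11225492 in the knockdown libraries and 10138479 in WT. The 10 clock genes together had 2012 and 2097 counts in the knockdown libraries and 1709 counts in WT. Scaled to library size, these were 176 and 185 CPM, against 171 CPM in WT. Of the markers of the labelled cell type, PAX8 had 2871 and 1969 counts (250 and 174 CPM) in the knockdown libraries and 2625 (263 CPM) in WT. KRT8, KRT18 and EPCAM were also present in every library, KRT7 had 14 to 20 counts, and NAPSA had 1 to 4. The leukocyte and endothelial markers PTPRC, CD3E, CD68 and VWF had 0 to 2 counts. Of the fibroblast markers, COL1A1 had 54 and 89 counts in the knockdown libraries and 67 in WT, DCN had 4 and 13 in the knockdown libraries and 1 in WT, and COL3A1 had 0 in all 3.

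The start regions of several of these genes carry the sequence motifs through which the loops act, and 1 motif with its surroundings is shown for each of 5 members. The sequences are RefSeq's (GRCh38.p14), 60 bases each, 5′ to 3′ on the strand of the gene, with the motif in capitals. They lie at chr17:8152545-8152604 (PER1, minus strand), chr2:238288775-238288834 (PER2, minus), chr1:7784087-7784146 (PER3, plus), chr12:107093606-107093665 (CRY1, minus) and chr17:40100725-40100784 (NR1D1, minus). PER1 holds an E-box (CACGTG), PER2, CRY1 and NR1D1 hold the variant CACGTT, called the E-prime box, which reads AACGTG on the other strand, and PER3 holds a D-box (TTANGTAA).
PER1: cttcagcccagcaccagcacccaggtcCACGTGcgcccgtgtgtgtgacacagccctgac
PER2: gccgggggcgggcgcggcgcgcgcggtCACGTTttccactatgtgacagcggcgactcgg
PER3: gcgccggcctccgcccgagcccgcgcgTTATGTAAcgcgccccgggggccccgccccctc
CRY1: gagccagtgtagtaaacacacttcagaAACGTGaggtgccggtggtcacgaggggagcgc
NR1D1: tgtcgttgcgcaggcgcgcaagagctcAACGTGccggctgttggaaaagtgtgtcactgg

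Motifs were sought on both strands from 250 bases before to 50 after each annotated start, and all 10 members matched the table, with 15 windows between them. An E-box was found in 2 members (PER1 and NR1D2), against 8.77% of all 27305 genes in the table. An E-prime box was found in 5 (PER2, CRY1, CRY2, CLOCK and NR1D1), against 6.44%. A D-box was found in 3 (PER2, PER3 and NR1D2), against 2.71%. A ROR element core (TAGGTCA or TGGGTCA) was found in 4 (CRY2, CLOCK, ARNTL and NR1D2), against 6.94%. A cAMP response element (TGACGTCA) was found in 0 of the 10 members, against 2.25%. No letters of these motifs stood in the window of DBP, which says nothing of E-boxes elsewhere in that gene. A match is a run of letters and not a measured binding site.

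Knockdown against WT asks which genes differ when HDAC2 is depleted in cells with mutated ARID1A. Of the 10 clock genes, 0 passed edgeR's quasi-likelihood test at an adjusted p below 0.05 in either direction, where 7.72% of the 14524 genes tested passed, 3.96% upwards and 3.76% downwards. At an unadjusted p below 0.05, 1 member (DBP) passed, where 23.5% of all genes did, and DESeq2's Wald test gave 0 members at either p, with an adjusted p for 3 of the 10, where 10.2% of all genes had an unadjusted p below 0.05. The count of members that passed was also 0 under the other settings, where the share of all genes that passed was 7.02% with DESeq2's size factors, 7.04% with upper quartile scaling and 10.1% with library size alone. It was 8.62% by edgeR's likelihood ratio test. Over other numbers of genes, it was 8.36% of the 11206 genes averaging 50 counts or more, 3.94% of the 7766 given an adjusted p by DESeq2's Wald test, and 0.0% of the 23698 tested with no filter on low counts. The lowest adjusted p of a member was 0.104 by edgeR's quasi-likelihood test, for DBP, and 0.0899 over the alternatives, also for DBP, where genes with fewer than 50 counts on average were left out. In the fit over all 14524 genes, the members' log2 changes ran from −0.83 to 0.38 with a median of 0.07, beside 0.01 over all genes tested. The median size of a change, without its sign, was 0.27 for the members and 0.30 for all genes.

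All 10 members passed the filter on low counts, with means of 44.3 to 409 counts over the 3 libraries. Of the 6049 genes in that range of counts, 7.51% passed the test, and the smallest log2 change among those that passed was 0.593 in size. Among the 10, DBP and NR1D1 alone had estimates of that size or more. The 95% intervals given with each gene show the range of its change under the fit. They take WT to have the same spread as the knockdown libraries, and they leave in the trend with GC content described below.

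**Figure D1:**
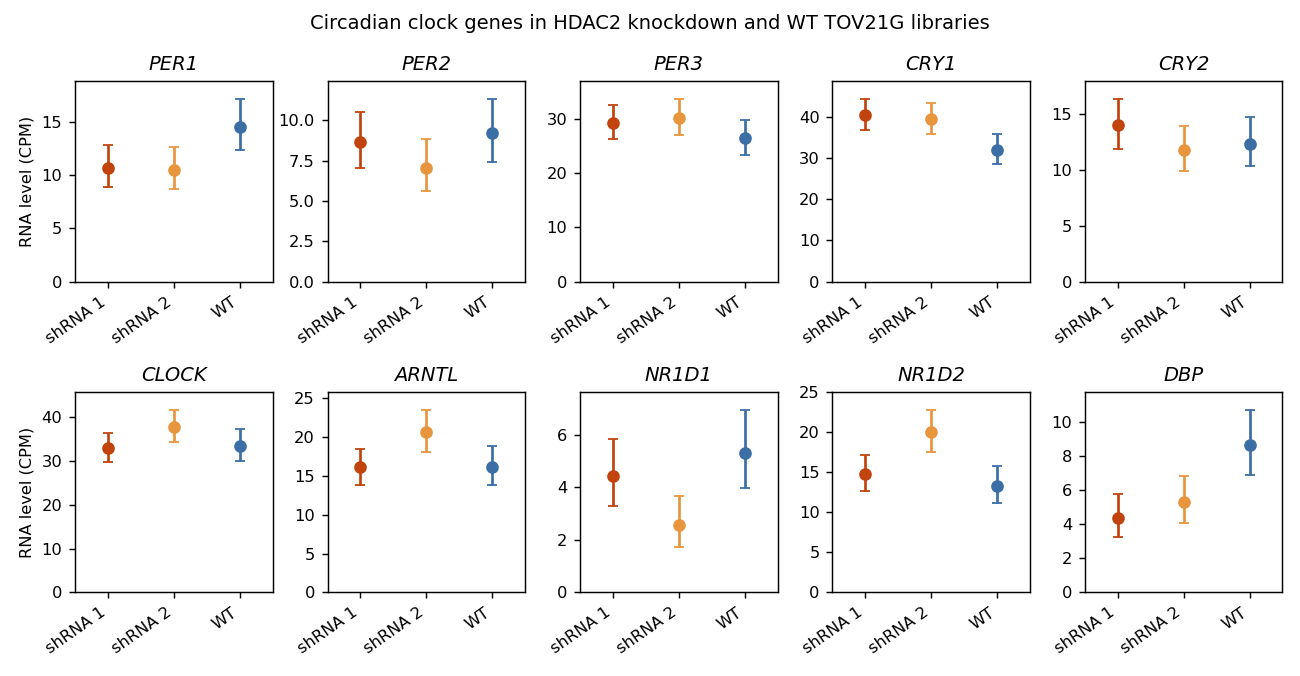
RNA level in CPM (y axis from 0) of each of the 10 clock genes in the libraries of shRNA 1, shRNA 2 and WT (x axis). Points are 1 library each and bars are exact 95% Poisson intervals of the count, scaled to CPM, which cover counting error only. DBP and PER1 lie below WT with both hairpins, and CRY1 lies above WT with both. The bars of PER1 overlap that of WT, but the 95% counting intervals of its ratios to WT left out 1.

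DBP, the output factor, had the largest log2 change of the 10 in the fit over both hairpins, while with shRNA 2 alone NR1D1 stood further from WT. DBP had 50 and 60 counts (4.36 and 5.31 CPM) with shRNA 1 and shRNA 2, against 86 counts (8.63 CPM) in WT. Both knockdown libraries were below WT, at 50.6% and 61.5% of its level, and averaged 4.83 ± 0.667 CPM (SD, n = 2). Its log2 change of −0.83 ± 0.31 (SE) had a 95% interval of −1.48 to −0.19, which left out 0, but with adjustment for all genes tested DBP did not pass (adjusted p = 0.104, edgeR's quasi-likelihood test). DBP overlaps the gene SPHK2 on the opposite strand over 661 exonic bases, 10.1% of its own. SPHK2 had 65 and 61 counts in the knockdown libraries and 83 in WT, and the share of DBP reads that belongs to SPHK2 is uncertain, because the sources used here do not say whether counting used strand.

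Among the repressors of the first loop, the period genes lay on both sides of WT. PER1 had 10.7 and 10.5 CPM with shRNA 1 and shRNA 2, against 14.5 CPM in WT. Both knockdown libraries were below WT and differed little from each other. Their ratios to WT were 0.738 (95% interval 0.575 to 0.945) and 0.723 (0.563 to 0.928). These exact intervals cover counting error only and left out 1, although the counting intervals of the single libraries overlap that of WT on the CPM scale. The log2 change of PER1 was −0.45 ± 0.23 (SE; 95% interval −0.93 to 0.03; adjusted p = 0.243, edgeR's quasi-likelihood test). PER2 had 8.64 and 7.07 CPM in the knockdown libraries, against 9.23 CPM in WT. Both were below WT, with counting intervals on the CPM scale that overlap that of WT. Its log2 change was −0.23 ± 0.28 (SE; 95% interval −0.81 to 0.34; adjusted p = 0.663, same test). PER3 had 29.2 and 30.2 CPM in the knockdown libraries, against 26.4 CPM in WT. Both were above WT, with counting intervals on the CPM scale that overlap that of WT, and the log2 change was 0.17 ± 0.20 (SE; 95% interval −0.24 to 0.58; adjusted p = 0.647, same test). PER3 overlaps UTS2 on the opposite strand over 868 exonic bases, and UTS2 had 0 counts in every library.

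The cryptochromes are the repressors that bind CLOCK and BMAL1 most directly. CRY1 had 40.3 and 39.4 CPM with shRNA 1 and shRNA 2, against 32.0 CPM in WT. Both knockdown libraries were above WT, at 126% and 123% of its level, and the log2 change was 0.32 ± 0.19 (SE; 95% interval −0.07 to 0.71; adjusted p = 0.324, edgeR's quasi-likelihood test). CRY2 had 14 and 11.8 CPM in the knockdown libraries, against 12.3 CPM in WT. The hairpin libraries lay on both sides of WT, and the log2 change was 0.06 ± 0.24 (SE; 95% interval −0.43 to 0.55; adjusted p = 0.911, same test).

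The activators CLOCK and ARNTL each had 1 hairpin library close to WT and 1 above it. CLOCK had 33.0 and 37.9 CPM with shRNA 1 and shRNA 2, against 33.5 CPM in WT, a log2 change of 0.08 ± 0.19 (SE; 95% interval −0.32 to 0.48; adjusted p = 0.839, edgeR's quasi-likelihood test). ARNTL had 16.1 and 20.7 CPM in the knockdown libraries, against 16.2 CPM in WT, a log2 change of 0.19 ± 0.23 (SE; 95% interval −0.29 to 0.66; adjusted p = 0.676, same test). In both genes the knockdown libraries lay on both sides of WT, so the groups overlapped. CLOCK overlaps TMEM165 on the opposite strand over 76 exonic bases, 0.6% of its own, and TMEM165 had 1067 and 1032 counts in the knockdown libraries and 644 in WT.

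The REV-ERB genes of the second loop lay on opposite sides of WT. NR1D1 had 51 and 29 counts (4.45 and 2.56 CPM) with shRNA 1 and shRNA 2, against 53 counts (5.32 CPM) in WT. Both knockdown libraries were below WT, shRNA 2 the further, at 83.7% and 48.2% of its level. The log2 change was −0.60 ± 0.40 (SE; 95% interval −1.44 to 0.24; adjusted p = 0.395, edgeR's quasi-likelihood test), the least precise of the 10. NR1D1 overlaps THRA on the opposite strand over 263 exonic bases, 9.5% of its own, so NR1D1 shares the uncertainty named for DBP. THRA had 107 and 97 counts in the knockdown libraries and 103 in WT. These counts, like those of SPHK2 and TMEM165, are not scaled, and WT had fewer total counts than either knockdown library. NR1D2 had 14.8 and 20.0 CPM in the knockdown libraries, against 13.3 CPM in WT. Both were above WT, again with shRNA 2 the further, and the log2 change was 0.38 ± 0.24 (SE; 95% interval −0.12 to 0.88; adjusted p = 0.355, same test).

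**Figure D2:**
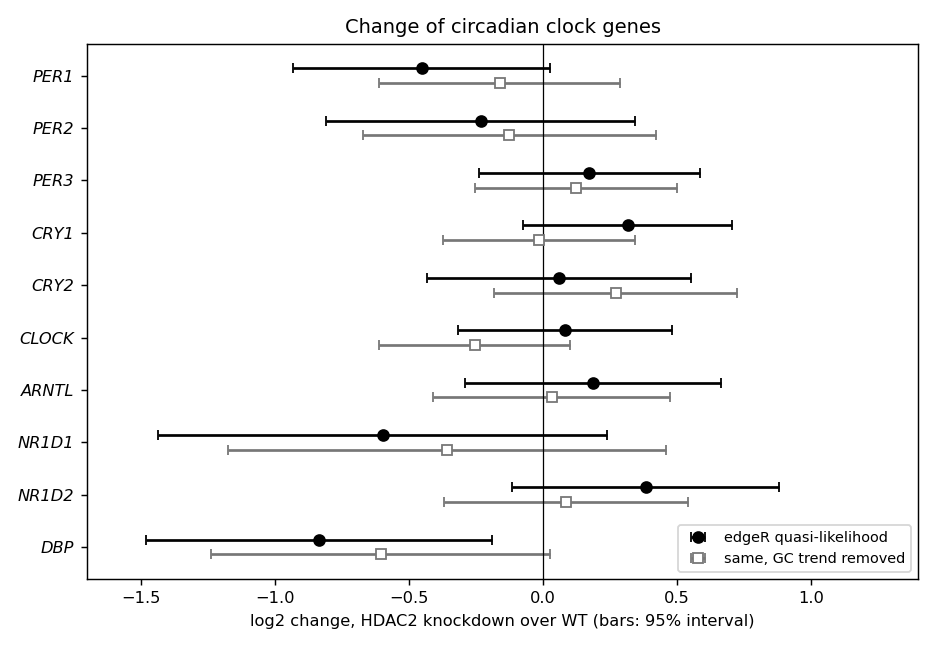
Log2 change of HDAC2 knockdown over WT for the 10 clock genes (x axis), as estimated by edgeR's quasi-likelihood fit (filled circles) and by that fit after the trend with transcript GC content was taken out (open squares), with 95% intervals. All intervals but that of DBP in the first fit include 0, and CRY1 and CLOCK lie above 0 in the first fit and below it in the second.

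Taking the 10 genes side by side, 3 (PER3, CRY1 and NR1D2) were above WT with both hairpins and 4 (PER1, PER2, NR1D1 and DBP) were below WT with both, and in 3 (CRY2, CLOCK and ARNTL) the hairpin libraries lay on both sides. Over all genes tested, 39.9% were above WT with both hairpins and 39.3% below it with both, 79.1% together. The 7 of 10 members on 1 side therefore stand near the share of all genes.

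The hairpins differed from each other most for NR1D1, NR1D2 and ARNTL. The level with shRNA 2 was 0.576 times that with shRNA 1 for NR1D1 (95% interval 0.352 to 0.927), 1.35 times for NR1D2 (1.1 to 1.65) and 1.29 times for ARNTL (1.06 to 1.57). These are exact conditional intervals that cover counting error only, and with 1 library per hairpin no test of the difference was possible. For PER1, PER2, PER3, CRY1, CRY2 and DBP the interval included 1, with ratios of 0.819 to 1.22, and for CLOCK it was 1.15 (1.0 to 1.32). HDAC2 itself was 1.54 times as high with shRNA 2 as with shRNA 1 (1.35 to 1.76).

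**Figure D3:**
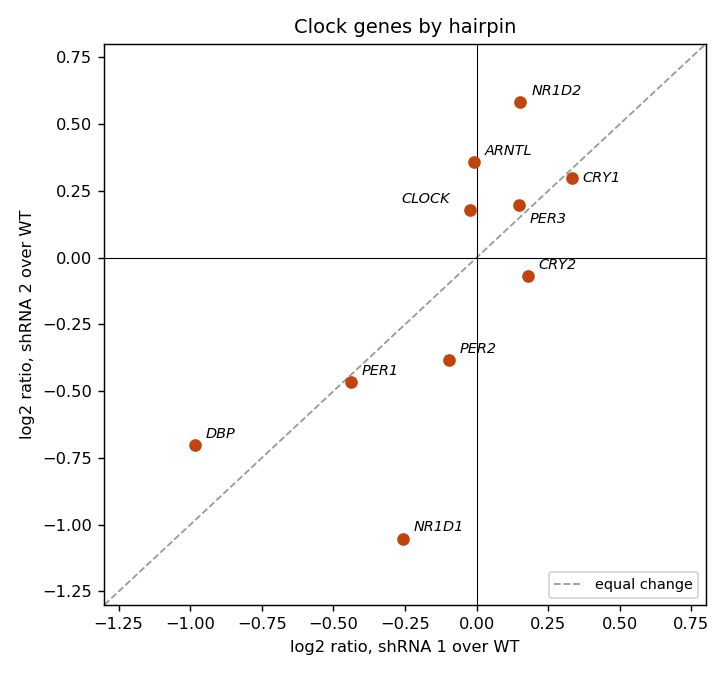
Log2 ratio to WT of each clock gene with shRNA 1 (x axis) and with shRNA 2 (y axis), 1 point per gene, with the line of equal change. PER1, PER3 and CRY1 lie closest to the line, and NR1D1 lies farthest from it, at −0.26 with shRNA 1 and −1.05 with shRNA 2.

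Set per kilobase of the principal transcript, CRY1 was the most abundant of the 10, with 12.3 and 12.0 CPM per kb in the knockdown libraries and 9.80 in WT. ARNTL followed with 5.78 and 7.45 in the knockdown libraries and 5.82 in WT, and PER3 came next with 4.71 and 4.88 in the knockdown libraries and 4.25 in WT. PER2 (1.35 and 1.11 in the knockdown libraries, 1.45 in WT) and NR1D1 (1.61 and 0.925 in the knockdown libraries, 1.92 in WT) were the least abundant. The other 5, CLOCK, NR1D2, CRY2, DBP and PER1, had means over the 3 libraries of 2.54 to 3.38 CPM per kb, and their order changed from library to library. The rank of DBP depends on the transcript taken, with a mean of 2.74 CPM per kb on the principal and 1.06 on the longest transcript.

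Differences in this table followed the GC content of the transcripts, and the clock genes are spread along it. Over all genes tested, the median log2 change was 0.34 where the longest transcript had under 40% GC and −0.29 where it had 60% or more. CRY1, CLOCK and NR1D2 fall in the first range, with 37.2%, 37.2% and 38.5% GC, and PER1 in the last, with 62.7%. DBP and NR1D1, at 57.8% and 59.5% GC, and CRY2, at 57.0%, fall in the range from 55% to 60%, where the median of all genes was −0.22. With the trend removed, the log2 change was −0.015 for CRY1, 0.09 for NR1D2, −0.16 for PER1, −0.36 for NR1D1 and −0.61 for DBP. CLOCK then stood at −0.25 and CRY2 at 0.27. Again 0 of 10 members passed, where 4.93% of all genes passed in that fit by edgeR's quasi-likelihood test, and 0 had an unadjusted p below 0.05, where 17.8% of all genes did. DBP did not pass there either (adjusted p = 0.307, edgeR's quasi-likelihood test).

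**Figure D4:**
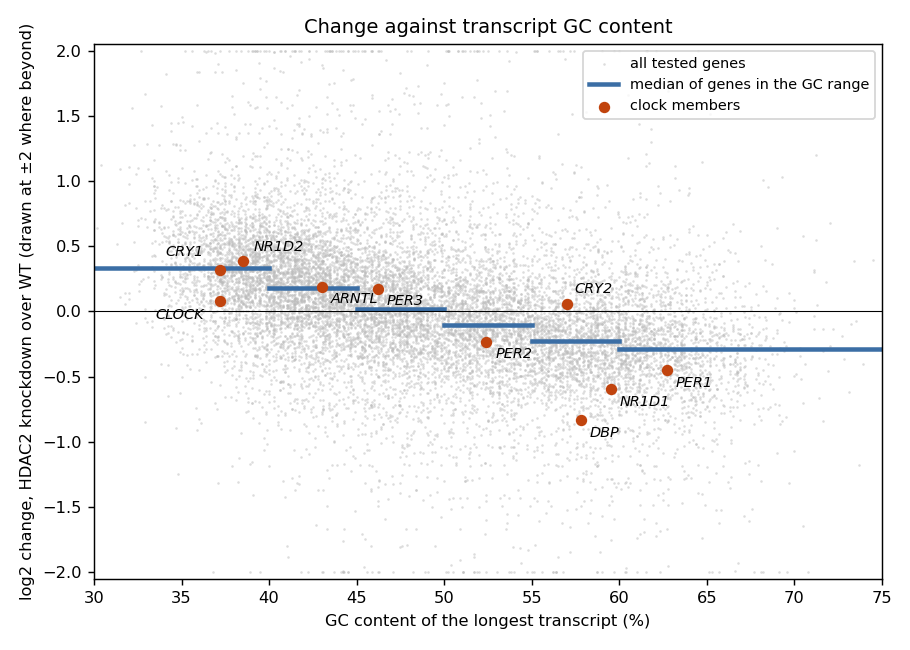
Log2 change of HDAC2 knockdown over WT (y axis, values beyond ±2 drawn at ±2) against the GC content of each gene's longest transcript (x axis, %), for all tested genes (grey), their medians in 6 ranges of GC content (blue lines) and the 10 clock genes (orange). The medians run from 0.34 under 40% GC to −0.29 at 60% GC or more; DBP lies below the median of its range and CRY2 above it.

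Of 52 other genes of the clock, listed by role, 46 passed the filter on low counts, and 3 passed the test (2 rose and 1 fell), where 7.72% of all genes did. Their median log2 change was 0.03. At an unadjusted p below 0.05, 12 of the 46 passed, where 23.5% of all genes did. No role group was tested as a set.

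Of 11 kinases and phosphatases that act on clock proteins, 5 had an unadjusted p below 0.05, beside 23.5% of all genes. GSK3B alone passed, and rose, beside 7.72% of all genes. This kinase, which phosphorylates several clock proteins, had 199 CPM with either hairpin, against 115 CPM in WT, a log2 change of 0.80 ± 0.18 (SE; adjusted p = 0.00870, edgeR's quasi-likelihood test). It was above WT to the same degree in both libraries. The phosphatase subunit genes PPP1CB and PPP1CA did not pass, at 0.53 ± 0.19 and −0.43 ± 0.16 (log2, SE), and PPP1CB shares part of its sequence with its neighbour SPDYA. With the GC trend removed they stood at 0.13 and −0.16. PPP1CB passed edgeR's quasi-likelihood test with library size alone (adjusted p = 0.0474), and its log2 ratio to WT was 0.30 with shRNA 1 and 0.73 with shRNA 2. Casein kinase 1 delta and epsilon, the main kinases of the PER proteins, are encoded by CSNK1D and CSNK1E, which were chosen after their values were seen, and did not pass, at −0.25 ± 0.17 and −0.17 ± 0.17. CSNK1E shares 19.5% of its 75-base stretches with the annotated gene TPTEP2-CSNK1E, where PPP1CB shares 6.51% with SPDYA.

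Of 14 partners and cofactors, 5 had an unadjusted p below 0.05, beside 23.5% of all genes. TIMELESS alone passed, and fell, beside 7.72% of all genes. The TIMELESS protein binds TIPIN at replication forks, and the gene is named for a clock gene of Drosophila. TIMELESS had 24.7 and 28.5 CPM with shRNA 1 and shRNA 2, against 44.0 CPM in WT, a log2 change of −0.73 ± 0.19 (SE; adjusted p = 0.0221, edgeR's quasi-likelihood test). HDAC3, the deacetylase through which REV-ERB proteins repress, lay just outside the threshold. It had 68.7 and 73.2 CPM in the knockdown libraries, against 103 CPM in WT (log2 change −0.54 ± 0.17, SE; adjusted p = 0.0526, same test). It was below WT with both hairpins. It passed edgeR's likelihood ratio test (adjusted p = 0.0419). With genes under a mean of 50 counts left out, it also passed the quasi-likelihood test of edgeR (adjusted p = 0.0476). Its adjusted p over the alternatives reached 0.468, edgeR's quasi-likelihood test with no filter on low counts. It was 0.207 by DESeq2's Wald test and 0.141 by edgeR's quasi-likelihood test with the GC trend removed.

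Of 7 known clock outputs tested, 1 had an unadjusted p below 0.05, beside 23.5% of all genes. PPARGC1A, a coactivator of nuclear receptors in energy metabolism, alone passed, and rose, beside 7.72% of all genes. It had 82.1 and 99.1 CPM in the knockdown libraries, against 53.9 CPM in WT, a log2 change of 0.75 ± 0.18 (SE; adjusted p = 0.0170, edgeR's quasi-likelihood test). KLF10, at 0.21 ± 0.19 (log2, SE), did not pass. With the GC trend removed, the calls of GSK3B and TIMELESS were kept (adjusted p = 0.0348 and 0.0437, same test) and that of PPARGC1A was lost (adjusted p = 0.0843, log2 change 0.52). DESeq2's Wald test called GSK3B but neither TIMELESS nor PPARGC1A (adjusted p = 0.193 and 0.0672).

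Of 6 ubiquitin ligases and deubiquitinases, 0 passed edgeR's quasi-likelihood test, beside 7.72% of all genes. At an unadjusted p below 0.05, 1 passed, beside 23.5% of all genes. BTRC, a ligase subunit that marks PER proteins for degradation, stood at 0.31 ± 0.17 (log2, SE). Of 8 other transcription factors of the loops, 0 passed, and 0 had an unadjusted p below 0.05, beside the same shares of all genes. CIART, a repressor of CLOCK and BMAL1, had 12 and 10 counts with shRNA 1 and shRNA 2, against 21 in WT, and HLF, a relative of DBP, had 54 and 20, against 16 in WT.

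**Figure D5:**
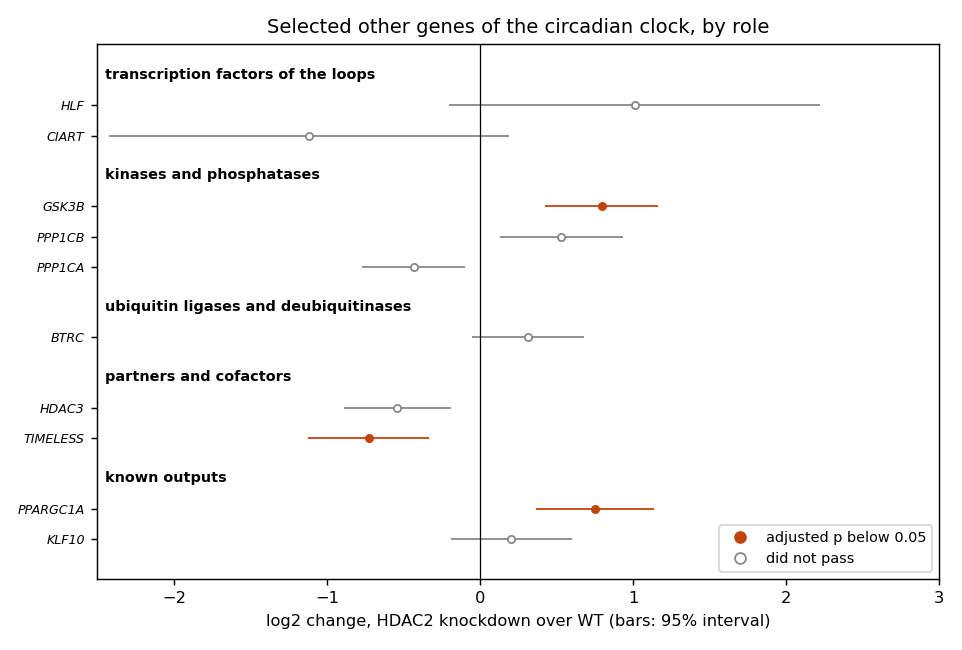
Log2 change of HDAC2 knockdown over WT (x axis) with 95% intervals for the 10 other genes of the clock chosen by the naming rule, grouped by role; filled orange points passed edgeR's quasi-likelihood test at an adjusted p below 0.05. GSK3B and PPARGC1A lie above 0 and TIMELESS below it, and the widest intervals belong to CIART and HLF, which had few counts.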

How the data were processed

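Total RNA of TOV21G cells was sequenced as 75 bp reads, per the labels' protocols. For 3 libraries the authors deposited estimated counts by Ensembl gene, all of them whole numbers. The submitters' processing notes name hg19, edgeR and RSEM 1.2.3 without their roles, and no source used here gives the strand setting. Positions, overlaps, transcript length and GC content come from GENCODE 29 (GRCh38). HDAC2 knockdown (n = 2) was compared with WT (n = 1) by edgeR's quasi-likelihood test (edgeR 4.0.16, R 4.3.3; TMM scaling, filterByExpr defaults, Benjamini-Hochberg adjustment over 14524 genes, threshold 0.05), on 1 residual and 18.9 prior degrees of freedom. The fit was tested on simulated data in which every library, WT included, had the same spread and the hairpins did not differ. That test therefore cannot check the spread assumed for WT. CPM use TMM-scaled library sizes. Intervals of counts and of ratios between libraries are exact, at 95%. Alternatives changed scaling, filter and test (DESeq2 1.42.0), removed a GC trend (known for 97.2% of tested genes), or left out a hairpin. Other clock genes were named if they passed, with the 2 largest other changes per role, of which some are not reported here; no gene was named by likeness of pattern, which 3 libraries cannot rank. The members and lists were chosen with earlier results of these data known. The marker PECAM1 was not analysed here.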

Additional observations from a re-analysis of the deposited data

How the results depend on the processing

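Under each of the 8 alternatives of scaling, filter, test and GC correction, 0 clock members passed. NR1D1 was not tested at a mean count of at least 50, and DESeq2 gave no adjusted p for 7 of the 10. Members kept their direction in these alternatives except CRY1 and CLOCK, which stood at −0.015 and −0.25 (log2) with the GC trend removed. Leaving out 1 hairpin gives values without a test: CRY2 then ran from −0.069 to 0.18, CLOCK from −0.023 to 0.18 and ARNTL from −0.0089 to 0.36. Of the other clock genes 3 passed, against 0 with no filter on low counts, 1 by DESeq2's Wald test and 5 by edgeR's likelihood ratio test. Of all genes 1121 passed, against 0 with no filter (2486 at an unadjusted p below 0.05; adjusted p = 0.468 for HDAC2, GSK3B, TIMELESS and PPARGC1A), 306 by DESeq2's Wald test and 716 with the GC trend removed. With library size alone 1463 passed, 868 higher and 595 lower, against 575 higher and 546 lower. With the GC trend removed the split was 262 higher and 454 lower. The cause of these shifts was not tested. With 250 bases before the start alone, the share of genes was 7.73% with an E-box, 5.53% with an E-prime box, 2.48% with a D-box, 5.93% with a ROR core and 2.03% with a cAMP response element. PER2 then no longer held a D-box, leaving 2 members, and ARNTL no longer a ROR core, leaving 3. No paired analysis was possible because there is 1 WT library, so the groups share fewer than 2 replicate numbers.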

Other observations

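The PAR bZIP factors DBP, TEF and HLF bind the same D-boxes, and NFIL3 represses from them; TEF and NFIL3 were named after their values were seen. TEF had 6.72 and 6.99 CPM with shRNA 1 and shRNA 2, against 9.23 CPM in WT (log2 change −0.43 ± 0.28, SE), and NFIL3 had 18.9 and 19.3 CPM in the knockdown libraries, against 19.3 CPM in WT. HLF had 4.71 and 1.77 CPM in the knockdown libraries, against 1.61 CPM in WT. TEF was below WT with both hairpins, as DBP was and as 39.3% of all genes tested were. None of the 4 passed edgeR's quasi-likelihood test. NPAS2 and ARNTL2, the paralogs of CLOCK and ARNTL, also named after their values were seen, had 35.1 and 29.3 CPM (NPAS2) and 34.8 and 20.8 CPM (ARNTL2) in the knockdown libraries, against 39.0 and 26.6 CPM in WT. RORB and BHLHE41 had at most 1 count in each library.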
